A study of Homo sapiens with 3 samples.

Results

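The 9 keratin genes described here are KRT7, KRT8, KRT80, KRT81 and KRT86, which encode type II keratins, and KRT10, KRT17, KRT18 and KRT19, which encode type I keratins. Their RNA was sequenced in SK-Hep-1, a human cell line established from an adenocarcinoma of the liver. The set was chosen by gene name from the 22464 genes of the deposited expression table, and it was selected with the measured values of all 3 libraries already known. The values below therefore describe these genes and carry no test. The table lists 25 further keratin genes, and some of these, such as KRT34, had more RNA than the weakest of the 9.

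The study asked how lowering the long noncoding RNA LINC01089 alters gene expression. The sh1089-1 and sh1089-2 lines are SK-Hep-1 cells that stably carry different short hairpin RNAs against LINC01089, delivered by lentivirus, and the shNC line is the negative control. All 3 lines share the parental cells. Each line is represented by 1 library, so no spread between replicates exists, and a difference between lines cannot be told apart from a difference between any pair of stable lines or libraries. The level of LINC01089 was not analysed here, so the hairpin labels were not checked against their target. The values are FPKM, fragments scaled to gene length and to library size, as computed by the authors.

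Keratins form the intermediate filaments of epithelial cells. A filament is built from pairs that each join 1 type I and 1 type II protein, so cells that make filaments express members of both types. KRT8 and KRT18 are the basic pair of simple, single-layered epithelia and the main keratins of hepatocytes, while KRT7 and KRT19 are further simple-epithelial keratins that mark bile duct cells in the liver. KRT81 and KRT86 are hard keratins of the hair shaft, KRT10 belongs to the upper layers of the epidermis, and KRT17 is known from hair follicles and injured skin. The type II genes and KRT18 lie in a cluster on chromosome 12, and the other type I genes lie on chromosome 17.

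Whole reads could be worked back from the deposited values for 19082 of the 19204 genes above 0 that were searched. The libraries held 9528312 reads for sh1089-1, 8359832 for sh1089-2 and 10698480 for shNC. The numbers of genes at 1 FPKM or more were 11046 in sh1089-1, 11195 in sh1089-2 and 11361 in shNC. Intervals given below are 95% Clopper-Pearson intervals on those reads. They cover counting error only, because each line has 1 library, and the reads carry no molecular identifiers.

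Against marker genes, the cells had keratins without most of the other genes of a simple epithelium. Of 15 such markers, 10 stayed under 1 FPKM in all 3 libraries. EPCAM, a surface marker of epithelia, had 0.0417 FPKM in sh1089-1, 0.0475 in sh1089-2 and 0.0371 in shNC. CDH1, the epithelial cadherin, was at 0 FPKM in sh1089-1, 0.118 in sh1089-2 and 0.0459 in shNC. Of 6 hepatocyte markers listed in the table, APOA1, TTR and FGB were at 0 in every library, and SERPINA1, the gene of a secreted protease inhibitor, reached 5.91 FPKM in sh1089-1, 8.0 in sh1089-2 and 4.69 in shNC. Of 10 endothelial markers in the table, 8 stayed under 1 FPKM in all 3 libraries, with PECAM1, CDH5 and VWF under 0.04 FPKM in each. ROBO4 was above 1 FPKM in each library, and ENG had 48.8 FPKM in sh1089-1, 42.8 in sh1089-2 and 37.5 in shNC. The mesenchymal filament gene VIM had 1171 FPKM in sh1089-1, 1445 in sh1089-2 and 922 in shNC. Of the 10 fibroblast and mesenchymal markers, 3 (COL1A1, COL1A2 and DCN) stayed under 1 FPKM in all 3 libraries.

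KRT18, KRT8 and KRT19 dominated the keratin RNA and were higher in each hairpin line than in shNC. Together they took 96.6% of the reads of the 9 genes in sh1089-1, 97.8% in sh1089-2 and 95.1% in shNC. The 9 genes together took 1.14% of all reads in sh1089-1, 1.11% in sh1089-2 and 0.757% in shNC. The lower-level keratins did not follow the same pattern. KRT7 and KRT86 were lower in each hairpin line than in shNC, and KRT81 was low in the sh1089-2 line.

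A gene was called higher or lower where log2(FPKM + 1) differed by at least 1.5-fold, among the 11198 genes with a mean of at least 1 FPKM over the libraries. Of the 9 keratins, 8 passed that filter on the mean, and KRT17 did not. In sh1089-1 over shNC, 2 keratins were called higher (KRT18 and KRT19), where the rule called 5.27% of all genes, and 2 were called lower (KRT7 and KRT86), where it called 5.83%. In sh1089-2 over shNC, 2 were called higher (KRT18 and KRT19), against 4.89% of all genes, and 3 were called lower (KRT7, KRT81 and KRT86), against 5.63%. In sh1089-2 over sh1089-1, 0 were called higher, against 2.47% of all genes, and 1 was called lower (KRT81), against 2.3%. Both hairpin lines were set against the same shNC library. Because the keratins were picked with these differences known, nothing is read from their share of calls. The median difference in log2(FPKM + 1) of the 8 keratins was 0.46 in sh1089-1 over shNC, where that of all 11198 genes was -0.03. It was 0.07 in sh1089-2 over shNC, beside -0.04 for all genes, and -0.40 in sh1089-2 over sh1089-1, beside -0.01.

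**Figure D1:**
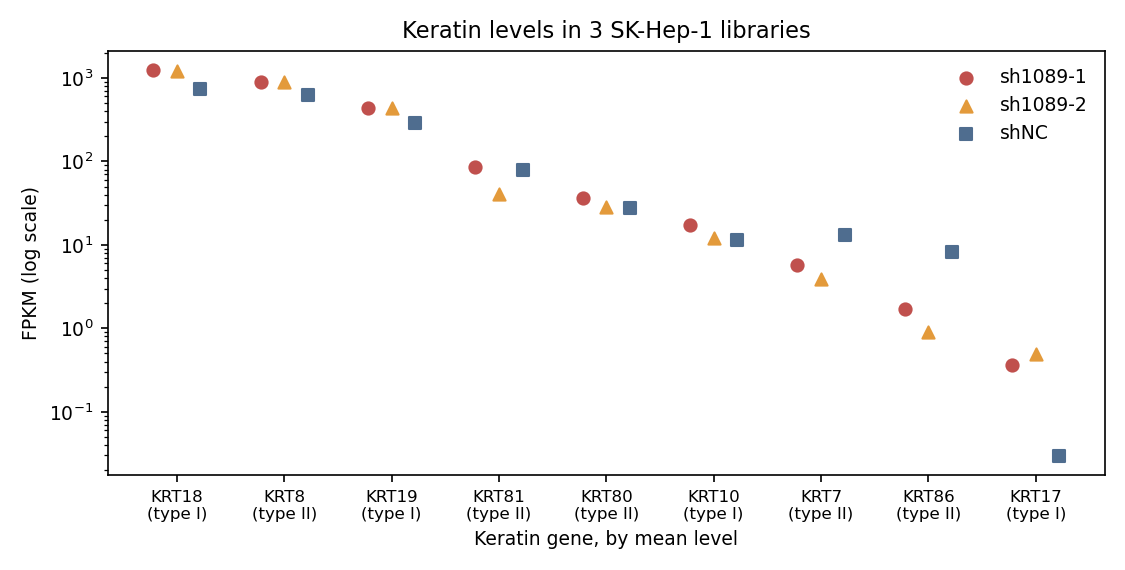
FPKM of the 9 keratin genes on a log axis, 1 point per library, for sh1089-1, sh1089-2 and shNC, ordered by mean level. KRT18, KRT8 and KRT19 lie above 289 FPKM in every library, KRT7 and KRT86 are highest in shNC, and KRT81 is lowest in sh1089-2.

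KRT18, the type I partner of the simple-epithelial pair, had 1244 FPKM in sh1089-1, 1203 in sh1089-2 and 739 in shNC. It lies on the plus strand at chr12:52948871-52952901 (GRCh38). By FPKM it was the highest of the 9 keratins in each library. Among all genes it held rank 21 in sh1089-1, rank 22 in sh1089-2 and rank 44 in shNC. KRT8 had more reads than KRT18 in each library and stood above it per base of coding sequence, so this order depends on the gene length used. Per base of coding sequence means here all recovered reads of a gene, over all its exons, divided by its coding length. The ratio of KRT18 FPKM was 1.68 (1.66 to 1.71) in sh1089-1 over shNC and 1.63 (1.60 to 1.66) in sh1089-2 over shNC. The hairpin lines lay close to each other, at a ratio of 0.967 (0.953 to 0.982) in sh1089-2 over sh1089-1. In bulk RNA a larger share of cells that make a keratin and more of its RNA per cell cannot be told apart.

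KRT8, the type II partner of KRT18, had 889 FPKM in sh1089-1, 893 in sh1089-2 and 619 in shNC. Its gene lies on the minus strand at chr12:52897187-52949954. The ratio was 1.44 (1.42 to 1.45) in sh1089-1 over shNC and 1.44 (1.43 to 1.46) in sh1089-2 over shNC, both short of the 1.5-fold rule. After rescaling to TPM, KRT8 passed that rule in sh1089-2 over shNC, at a log2 difference of 0.60. KRT8 and KRT18 lie next to each other on opposite strands, and their annotated exons overlap by 525 bases. The labels' protocols describe strand-specific libraries, but whether the counting used the strand is not given in the sources used here. Reads from the overlap may thus stand in either gene, and the overlap covers 16.3% of the exon bases of KRT18 and 7.63% of those of KRT8.

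KRT19, a short type I keratin without the tail of its relatives, had 441 FPKM in sh1089-1, 441 in sh1089-2 and 290 in shNC. It lies on the minus strand at chr17:41523617-41528308. The ratio was 1.52 (1.48 to 1.57) in sh1089-1 over shNC and 1.52 (1.47 to 1.57) in sh1089-2 over shNC, so the counting intervals reach below the 1.5-fold rule that it passed. No stretch of 75 bases of its transcript occurs in another annotated gene. KRT18 stood to KRT19 as 2.82 to 1 in FPKM in sh1089-1, 2.73 to 1 in sh1089-2 and 2.55 to 1 in shNC.

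**Figure D2:**
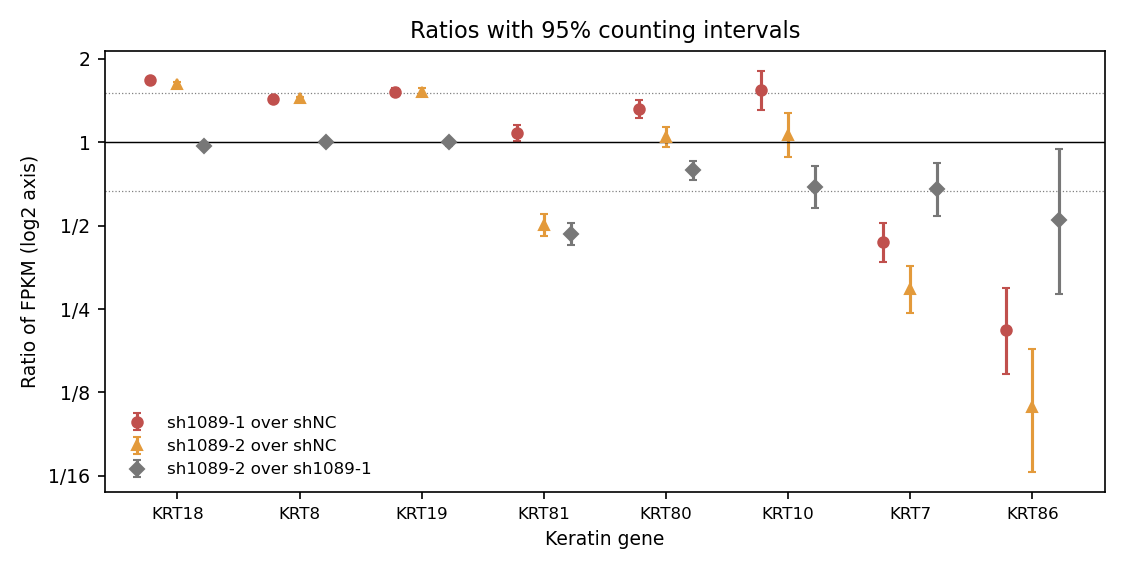
Ratios of FPKM on a log2 axis for 8 keratins, for sh1089-1 over shNC, sh1089-2 over shNC and sh1089-2 over sh1089-1, with bars for the 95% counting interval and dotted lines at 1.5-fold. KRT18, KRT8 and KRT19 lie above 1 in each hairpin line over shNC, KRT7 and KRT86 lie below it, and KRT17, with 1 read in shNC, is left out.

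KRT7, the type II keratin found in bile duct and many glandular epithelia, was at 5.75 FPKM in sh1089-1, 3.89 in sh1089-2 and 13.2 in shNC. Both hairpin lines lay under the shNC value. The gene lies on the plus strand at chr12:52232520-52252186. Its level was 2.30-fold lower (1.96 to 2.7) in sh1089-1 than in shNC and 3.40-fold lower (2.8 to 4.14) in sh1089-2 than in shNC. It rested on 219 reads in sh1089-1, 130 in sh1089-2 and 565 in shNC. Between the hairpin lines it was 1.48-fold lower (1.18 to 1.85) in sh1089-2 than in sh1089-1. The antisense gene KRT7-AS covers 282 exon bases of KRT7, 6.89% of its exons.

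Other bile duct markers were set beside KRT7 and KRT19. SOX9, a transcription factor of duct cells, had 31.9 FPKM in sh1089-1, 31.5 in sh1089-2 and 19.4 in shNC, and passed the 1.5-fold rule in each hairpin line. SPP1, the gene of osteopontin, had 23.5 FPKM in sh1089-1, 21.2 in sh1089-2 and 64.9 in shNC, lower by the same rule in each. SLC4A2, an anion exchanger gene, had 43.3 FPKM in sh1089-1, 26.5 in sh1089-2 and 34.7 in shNC. CFTR and TFF3 were at 0 in all 3 libraries. EPCAM and AQP1 stayed under 1 FPKM in each library. Of the 9 listed markers 5 passed the filter. In each hairpin line over shNC 2 were called higher (KRT19 and SOX9) and 2 lower (KRT7 and SPP1). The rule called 5.27% of all genes higher and 5.83% lower in sh1089-1 over shNC, and 4.89% and 5.63% in sh1089-2 over shNC. KRT7 and KRT19 were picked with their values known, so nothing is read from these counts.

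KRT81, a type II hair keratin, was at 86.3 FPKM in sh1089-1, 40.4 in sh1089-2 and 80.0 in shNC. The sh1089-2 library stood below the other 2. KRT81 lies on the minus strand at chr12:52285913-52291534. Its level was 1.98-fold lower (1.81 to 2.17) in sh1089-2 than in shNC, while the ratio of sh1089-1 over shNC was 1.08 (1.01 to 1.16). Set directly against each other, the hairpin lines differed 2.14-fold (1.95 to 2.35), with sh1089-2 the lower, a log2 difference of -1.08.

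KRT86, the close copy of KRT81, had 1.71 FPKM in sh1089-1, 0.899 in sh1089-2 and 8.12 in shNC. Both hairpin lines lay below shNC. Its gene lies on the plus strand at chr12:52249300-52309163. It was 4.75-fold lower (3.36 to 6.87) in sh1089-1 than in shNC and 9.03-fold lower (5.57 to 15.5) in sh1089-2 than in shNC, the widest ratios among the 8 keratins past the filter. They rest on 39 reads in sh1089-1, 18 in sh1089-2 and 208 in shNC. Between the hairpin lines KRT86 was 1.90-fold lower (1.06 to 3.53) in sh1089-2.

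The coding sequences of KRT81 and KRT86 were 94.2% identical, with 85 differing bases among 1454 aligned. The 15 other pairs of the same type were 64.3% to 76.7% identical, with KRT7 and KRT8 the closest of these. The pair shares an unbroken run of 605 bases, from coding position 61 to 665 in both genes, counted from 1 at the first base of the start codon. Within that run no base tells them apart, as its first 90 bases show:
KRT81 and KRT86: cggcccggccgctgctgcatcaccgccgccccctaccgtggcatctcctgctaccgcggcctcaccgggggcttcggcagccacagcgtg
The copies differ most near the 3′ end of the coding sequence. Of all windows of 90 bases aligned without a gap, the one from coding position 1237 to 1326 holds the most differing bases, 19, written here in capitals. It is shown because its bases tell the genes apart:
KRT81: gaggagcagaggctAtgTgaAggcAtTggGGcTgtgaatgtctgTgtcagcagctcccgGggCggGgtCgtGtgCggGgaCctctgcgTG
KRT86: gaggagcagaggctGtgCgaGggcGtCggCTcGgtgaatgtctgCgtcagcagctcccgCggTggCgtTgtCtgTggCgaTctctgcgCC
The sequences are those of the longest coding transcripts in GENCODE release 29 on GRCh38, chromosome 12, each read 5′ to 3′ on its own strand.

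**Figure D3:**
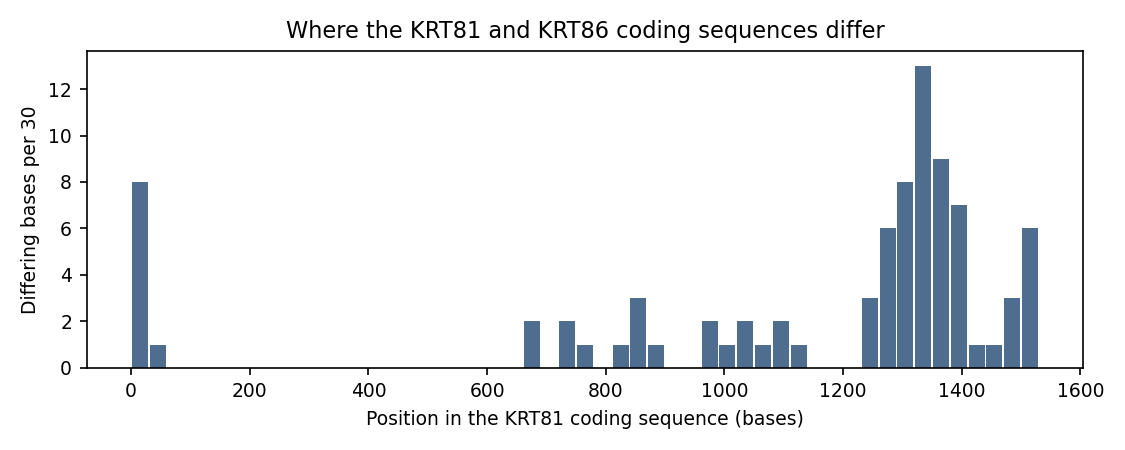
Number of differing bases per 30 bases along the KRT81 coding sequence in its alignment with KRT86, with the position in bases on the horizontal axis. The copies are identical from position 61 to 665 and differ most after position 1237.

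Of the 75-base stretches of the KRT81 transcript, 33.0% (612 of 1855) also occur in KRT86, and of those of the KRT86 transcript 28.6% (612 of 2143) occur in KRT81. With stretches shared with other genes included, 36.6% of KRT81 and 33.2% of KRT86 were not unique. How the authors' counting treated such reads is not given in the sources used here, so the split between both genes is uncertain. KRT86 reads came to 2.46% of KRT81 reads in sh1089-1, 2.76% in sh1089-2 and 12.6% in shNC. The share of KRT86 was thus not constant over the libraries. The sum of both genes, which no split of shared reads alters other than through their lengths, was 88.1 FPKM in sh1089-1, 41.3 in sh1089-2 and 88.1 in shNC. On that sum the log2 difference was -0.00 in sh1089-1 over shNC and -1.08 in sh1089-2 over shNC.

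**Figure D4:**
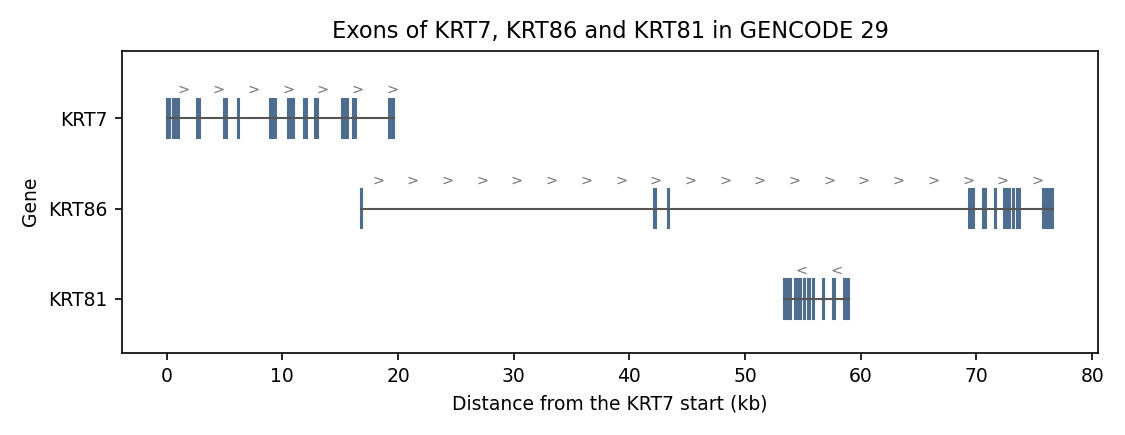
Annotated exons (boxes) of KRT7, KRT86 and KRT81 in GENCODE 29 by distance in kb from the KRT7 start, with arrowheads for the strand. A long intron of KRT86 holds KRT81 on the other strand, and the first exon of KRT86 lies within KRT7.

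The annotated KRT86 gene overlaps KRT7 by 2887 bases on the same strand and spans the whole of KRT81, 5622 bases, on the other strand. No annotated exon base of KRT86 lies in an exon of either gene. No 75-base stretch of KRT7 occurs in KRT86. KRT86 reads came to 17.8% of KRT7 reads in sh1089-1, 13.8% in sh1089-2 and 36.8% in shNC. The part that overlap plays in the counts of these neighbours was not tested.

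KRT80, a type II keratin of many epithelia, had 36.0 FPKM in sh1089-1, 28.5 in sh1089-2 and 27.3 in shNC. It lies on the minus strand at chr12:52168996-52192000, at the far end of the cluster from KRT18. The ratio was 1.32 (1.22 to 1.42) in sh1089-1 over shNC and 1.04 (0.962 to 1.13) in sh1089-2 over shNC, both within 1.5-fold. The sh1089-2 interval includes 1.

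KRT10, a type I keratin of differentiating epidermis, had 17.4 FPKM in sh1089-1, 12 in sh1089-2 and 11.3 in shNC. The sh1089-1 library stood above the other 2. Its position is chr17:40818117-40822595 on the minus strand. The ratio of FPKM was 1.54 (1.31 to 1.81) in sh1089-1 over shNC, which the pseudocount of 1 FPKM lowers to 0.58 in log2(FPKM + 1), just under the 1.5-fold rule. In sh1089-2 over shNC the ratio was 1.06 (0.881 to 1.27), and in sh1089-2 over sh1089-1 it was 0.689 (0.579 to 0.818).

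KRT17, a type I keratin induced in injured skin, was listed at 0.369 FPKM in sh1089-1, 0.497 in sh1089-2 and 0.0299 in shNC. It lies on the minus strand at chr17:41619441-41624842. These values rest on 11 reads in sh1089-1, 13 in sh1089-2 and 1 in shNC. On so few reads the ratio was 12.4 (1.80 to 532) in sh1089-1 over shNC and 16.6 (2.50 to 707) in sh1089-2 over shNC. In log2(FPKM + 1), where the pseudocount shrinks low genes, the difference was 0.41 in sh1089-1 over shNC and 0.54 in sh1089-2 over shNC.

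Within each library the order of the 9 levels in FPKM ran from KRT18 through KRT8, KRT19, KRT81 and KRT80 to the weaker genes. In sh1089-1 and sh1089-2 KRT10 followed, then KRT7, KRT86 and KRT17. In shNC KRT7 stood above KRT10, at 1.17 times its FPKM. The narrowest gaps between neighbours were 1.40-fold in sh1089-1 and 1.35-fold in sh1089-2, both between KRT18 and KRT8, and 1.17-fold in shNC between KRT7 and KRT10. With all recovered reads of each gene divided by its coding length, KRT8 stood above KRT18 instead. It was at 1.35 times the KRT18 value in sh1089-1, 1.40 in sh1089-2 and 1.58 in shNC. No spread over samples exists against which these gaps could be set.

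The type II keratins summed to 1018 FPKM in sh1089-1, 967 in sh1089-2 and 747 in shNC, and the type I keratins to 1703 FPKM in sh1089-1, 1656 in sh1089-2 and 1040 in shNC. The ratio of type II to type I was 0.598 in sh1089-1, 0.584 in sh1089-2 and 0.718 in shNC. KRT8 over KRT18 was 0.714 in sh1089-1, 0.742 in sh1089-2 and 0.837 in shNC. Both ratios were lower in the hairpin lines than in shNC. Their size depends on the gene length by which reads are divided, since the exons summed for KRT8 come to 6881 bases, against a coding sequence of 1533 bases. Per base of coding sequence, type II over type I was 1.10 in sh1089-1, 1.11 in sh1089-2 and 1.29 in shNC, and KRT8 over KRT18 was 1.35 in sh1089-1, 1.40 in sh1089-2 and 1.58 in shNC. The type in excess thus changed with the length used. For KRT8 over KRT18 a change of length scales every library alike, so the order of the libraries could not change. For the sums shNC stayed highest, which could hardly change because KRT8, KRT18 and KRT19 held most of the keratin reads. The order of the hairpin lines did change, with sh1089-1 above sh1089-2 in FPKM and below it per coding base.

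Among the 25 other keratin genes in the table, 3 had a mean of at least 1 FPKM and 8 were at 0 in every library. KRT34, a type I hair keratin, had 22.8 FPKM in sh1089-1, 25.3 in sh1089-2 and 27.5 in shNC, at ratios of 0.827 (0.722 to 0.946) in sh1089-1 over shNC and 0.920 (0.803 to 1.05) in sh1089-2 over shNC. KRT15, a type I keratin of basal epithelial cells, had 3.90 FPKM in sh1089-1, 4.53 in sh1089-2 and 3.84 in shNC. KRT33B, another type I hair keratin, had 1.37 FPKM in sh1089-1, 2.23 in sh1089-2 and 1.28 in shNC. KRT32, a type I hair keratin, had 0.480 FPKM in sh1089-1, 0.889 in sh1089-2 and 0.427 in shNC. KRT79, a type II keratin, had 0.0826 FPKM in sh1089-1, 0.188 in sh1089-2 and 0.368 in shNC. The other 12 had a mean above 0 and under 0.2 FPKM.

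Along chromosome 12 from KRT80 to KRT18 the table lists 18 protein-coding genes, of which 6 had a mean of at least 1 FPKM. These were KRT80, KRT7, KRT86, KRT81, KRT8 and KRT18. Along chromosome 17 from KRT10 to KRT17, 6 of 24 reached that mean, among them KRT34, KRT33B, KRT15 and the keratin-associated protein gene KRTAP2-3. KRTAP2-3, a hair matrix protein gene named here after its values were seen, had 144 FPKM in sh1089-1, 140 in sh1089-2 and 66.0 in shNC. Its ratio was 2.19 (1.98 to 2.41) in sh1089-1 over shNC and 2.11 (1.91 to 2.34) in sh1089-2 over shNC. Neighbouring genes of the clusters thus had differences of either sign.

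KRT8 and KRT18 have many processed pseudogenes, copies of their mRNA inserted elsewhere in the genome. The table lists 45 keratin pseudogenes, of which 18 are copies of KRT8 and 17 of KRT18. Reads assigned to the KRT8 copies came to 0.218% of KRT8 reads in sh1089-1, 0.146% in sh1089-2 and 0.266% in shNC. For the KRT18 copies the share of KRT18 reads was 0.0495% in sh1089-1, 0.0616% in sh1089-2 and 0.111% in shNC. The strongest were KRT8P3, with 4.56 FPKM in sh1089-1, 1.90 in sh1089-2 and 2.06 in shNC, and KRT8P12, with 1.23 FPKM in sh1089-1, 1.93 in sh1089-2 and 2.56 in shNC. KRT18P12, KRT8P36 and KRT8P14 followed, each under 1.1 FPKM in every library. Of the 1613 stretches of 75 bases in the KRT8 transcript, 322 occur in another annotated gene, and of those of KRT18 25.5% do, mostly in KRT8 where the gene ends overlap.

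The other intermediate filament genes numbered 14 in the table, 7 of them with a mean of at least 1 FPKM. In sh1089-1 over shNC 2 were called higher and 0 lower, beside 5.27% and 5.83% of all genes, with a median log2 difference of 0.33. In sh1089-2 over shNC 3 were called higher and 0 lower, beside 4.89% and 5.63% of all genes, with a median of 0.32. On 7 genes nothing is read from these counts. LMNB1, the gene of nuclear lamin B1, had 46.9 FPKM in sh1089-1, 47.7 in sh1089-2 and 23.2 in shNC. LMNB2, the gene of lamin B2, had 77.4 FPKM in sh1089-1, 67.4 in sh1089-2 and 38.8 in shNC. VIM was called higher in sh1089-2 over shNC, at a log2 difference of 0.65, and had 0.34 in sh1089-1 over shNC. LMNA, which encodes the A-type lamins, had 271 FPKM in sh1089-1, 269 in sh1089-2 and 215 in shNC.

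**Figure D5:**
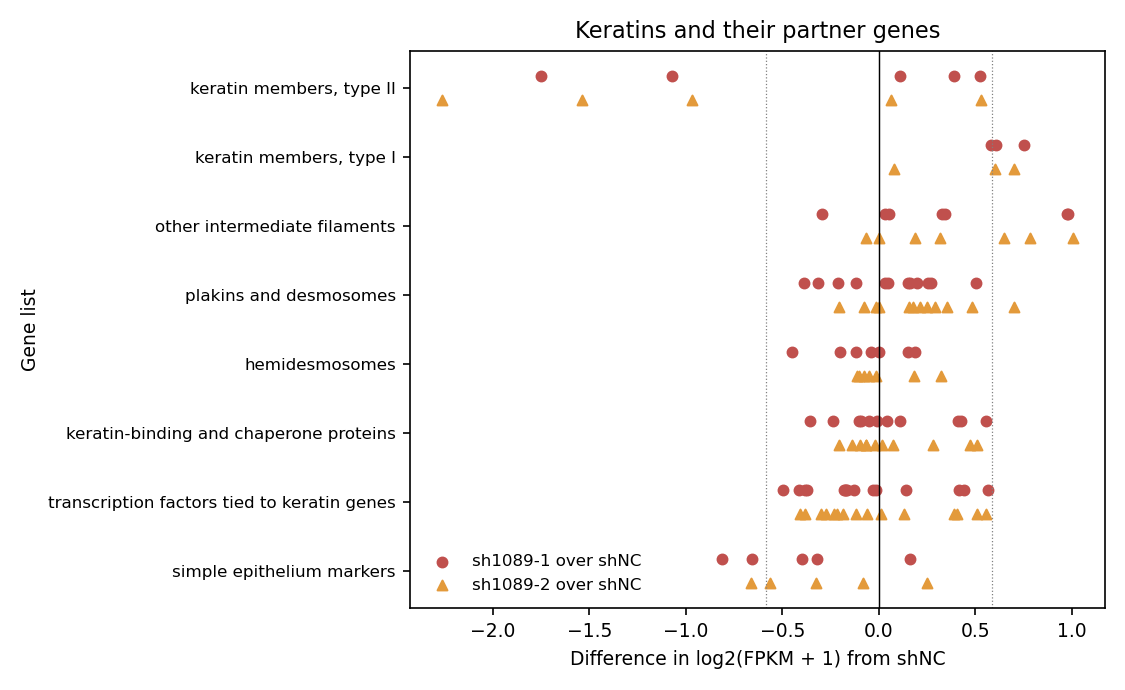
Difference in log2(FPKM + 1) of sh1089-1 and sh1089-2 from shNC, 1 point per gene of mean FPKM 1 or more, for the keratins and for lists of partner genes, with dotted lines at 1.5-fold. KRT86 and KRT7 lie farthest to the left among the keratins, and most genes of the anchoring and binding lists lie between the dotted lines.

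Plakins and desmosome proteins tie keratin filaments to cell junctions. Of 12 such genes with a mean of at least 1 FPKM, 0 were called in sh1089-1 over shNC, with a median of 0.10. The rule called 5.27% of all genes higher there and 5.83% lower, so nothing is read from that count. In sh1089-2 over shNC 1 was called higher, beside 4.89% of all genes, with a median of 0.20. That gene was JUP, which encodes plakoglobin, at 12.3 FPKM in sh1089-1, 20.2 in sh1089-2 and 12 in shNC. PLEC, the gene of the linker plectin, had 94.2 FPKM in sh1089-1, 80.1 in sh1089-2 and 84.6 in shNC. DSP, the gene of desmoplakin, which binds keratins directly, had 4.30 FPKM in sh1089-1, 5.62 in sh1089-2 and 3.74 in shNC. EVPL, the envoplakin gene, had 18.7 FPKM in sh1089-1, 17.4 in sh1089-2 and 15.5 in shNC, and PKP3, a plakophilin gene, had 17.3 FPKM in sh1089-1, 14.3 in sh1089-2 and 11.9 in shNC. PERP, a desmosomal membrane protein gene, had 16.9 FPKM in sh1089-1, 19 in sh1089-2 and 16.3 in shNC, and MACF1, a large crosslinker gene, had 6.08 FPKM in sh1089-1, 8.27 in sh1089-2 and 8.28 in shNC. None of these passed the rule over shNC. The epidermal desmosomal cadherin genes DSG1, DSG3, DSG4 and DSC1 were at 0 in every library.

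Hemidesmosomes anchor keratins to the basement membrane. Of their 7 genes past the filter, 0 were called in either hairpin line over shNC, with medians of -0.04 in sh1089-1 over shNC and -0.05 in sh1089-2 over shNC. Of all genes, the rule called 5.27% higher and 5.83% lower in sh1089-1 over shNC. It called 4.89% higher and 5.63% lower in sh1089-2 over shNC, so nothing is read from 0 of 7. ITGB4, the integrin subunit that binds plectin, had 24.6 FPKM in sh1089-1, 42.8 in sh1089-2 and 34 in shNC. ITGB4 was called higher in sh1089-2 over sh1089-1, as were 2.47% of all genes. ITGA6, the partner integrin subunit gene, had 46.7 FPKM in sh1089-1, 49.7 in sh1089-2 and 53.8 in shNC. CD151, a tetraspanin gene, had 84.6 FPKM in sh1089-1, 80.9 in sh1089-2 and 86.9 in shNC. LAMB3, a laminin chain gene, had 101 FPKM in sh1089-1, 85.5 in sh1089-2 and 88.5 in shNC.

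Of 11 keratin-binding and chaperone genes past the filter, 0 were called in log2(FPKM + 1) in any comparison, with medians of -0.01 in sh1089-1 over shNC and -0.02 in sh1089-2 over shNC. Of all genes, the rule called 5.27% higher and 5.83% lower in sh1089-1 over shNC. It called 4.89% and 5.63% in sh1089-2 over shNC, and 2.47% and 2.3% in sh1089-2 over sh1089-1, so nothing is read from 0 of 11. HSPB1, a small heat shock protein gene, had 432 FPKM in sh1089-1, 440 in sh1089-2 and 447 in shNC. SFN, the gene of 14-3-3 sigma, which binds keratins, had 165 FPKM in sh1089-1, 177 in sh1089-2 and 124 in shNC. HSPA8, a constitutive chaperone gene, had 388 FPKM in sh1089-1, 351 in sh1089-2 and 289 in shNC. YWHAE, another 14-3-3 gene, had 202 FPKM in sh1089-1, 206 in sh1089-2 and 204 in shNC. Each of these stayed within 1.5-fold over the libraries. DNAJB6, a co-chaperone gene, had 31.4 FPKM in sh1089-1, 36.7 in sh1089-2 and 40.5 in shNC. CDK1, the mitotic kinase, had 17.5 FPKM in sh1089-1, 16.5 in sh1089-2 and 11.6 in shNC, and its log2 difference of 0.56 in sh1089-1 over shNC fell short of the rule with the pseudocount of 1 FPKM.

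Of 15 transcription factor genes tied to keratin genes and past the filter, 0 were called, with medians of -0.16 in sh1089-1 over shNC and -0.12 in sh1089-2 over shNC. Of all genes, the rule called 5.27% higher and 5.83% lower in sh1089-1 over shNC. It called 4.89% higher and 5.63% lower in sh1089-2 over shNC, so nothing is read from 0 of 15. FOSL1, an AP-1 subunit gene, had 284 FPKM in sh1089-1, 253 in sh1089-2 and 191 in shNC. JUN, its partner, had 98.9 FPKM in sh1089-1, 107 in sh1089-2 and 72.5 in shNC, while JUNB had 21.2 FPKM in sh1089-1, 22.7 in sh1089-2 and 30.4 in shNC. Other AP-1 genes were JUND, with 56.3 FPKM in sh1089-1, 74.9 in sh1089-2 and 57 in shNC, and FOSL2, with 42 FPKM in sh1089-1, 47.8 in sh1089-2 and 56.3 in shNC. The AP-1 genes thus lay on either side of their shNC level. The epithelial regulators TP63 and GRHL2 were at 0 in every library. KLF4, a factor of differentiating epithelia, had 6.73 FPKM in sh1089-1, 7.25 in sh1089-2 and 4.80 in shNC.

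Genes of the cornified envelope, the outer coat of skin cells, were low, with 3 of 10 at a mean of at least 1 FPKM and 0 called. These were FLG, CDSN and CNFN, and FLG, the filaggrin gene, had 4.28 FPKM in sh1089-1, 3.73 in sh1089-2 and 3.84 in shNC. Of the 5 simple epithelium markers past the filter, CLDN7 and SPINT1 were called lower in sh1089-1 over shNC, and SPINT2 was called lower in sh1089-2 over shNC. Beside the counts of each list here, the rule called 5.27% of all genes higher and 5.83% lower in sh1089-1 over shNC. In sh1089-2 over shNC it called 4.89% higher and 5.63% lower. With so few genes per list, nothing is read from these counts. CLDN7, a tight junction gene, had 2.78 FPKM in sh1089-1, 3.02 in sh1089-2 and 4.95 in shNC. It was also 1.64-fold lower (1.20 to 2.25) in sh1089-2 than in shNC. With the pseudocount of 1 FPKM that log2 difference was -0.56, just short of the rule. SPINT1, a protease inhibitor gene, had 0.770 FPKM in sh1089-1, 1.49 in sh1089-2 and 2.11 in shNC, and its relative SPINT2 had 1.53 FPKM in sh1089-1, 0.988 in sh1089-2 and 2.15 in shNC. OCLN, the occludin gene, and MUC1, a mucin gene, were within 1.5-fold of shNC. The 15 markers summed to 9.92 FPKM in sh1089-1, 11.4 in sh1089-2 and 14.9 in shNC, highest in the library where KRT18, KRT8 and KRT19 were lowest. That sum rests on few low genes, since 10 of the 15 stayed under 1 FPKM in all 3 libraries. CLDN7 was its largest part in each library. Of the 5 past the filter, MUC1 alone was lowest in shNC. Mesenchymal markers were led by VIM, and CDH2, the neural cadherin gene, had 11.3 FPKM in sh1089-1, 12.3 in sh1089-2 and 6.01 in shNC, called higher in each hairpin line. In sh1089-2 over shNC VIM and FN1 were also called higher and LUM lower. The median log2 difference of the 7 mesenchymal markers past the filter was -0.12 in sh1089-1 over shNC and 0.06 in sh1089-2 over shNC. COL3A1, a fibrillar collagen gene, had 6.44 FPKM in sh1089-1, 8.39 in sh1089-2 and 8.04 in shNC. The endothelial markers past the filter were ENG, with 48.8 FPKM in sh1089-1, 42.8 in sh1089-2 and 37.5 in shNC, and ROBO4, with 1.82 FPKM in sh1089-1, 1.55 in sh1089-2 and 1.30 in shNC. Of the hepatocyte markers SERPINA1 alone passed the filter, and it was called higher in sh1089-2 over shNC, at a log2 difference of 0.66. The part of these markers in the keratin differences was not tested.

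The genes nearest to KRT18 in the pair of differences were sought among 3893 protein-coding genes with a mean of at least 10 FPKM, by Euclidean distance in log2(FPKM + 1) over the 3 libraries. They were THY1, a surface glycoprotein gene, at a distance of 0.02, TGM2, the gene of tissue transglutaminase, at 0.04, and GMNN, the gene of geminin, at 0.04. TGM2 had 204 FPKM in sh1089-1, 202 in sh1089-2 and 121 in shNC. Nearest to KRT81 were S100A3, a calcium-binding protein gene known from the hair cuticle, at 0.23, the lipase inhibitor gene G0S2 at 0.25, and CCDC167 at 0.34. S100A3 had 22 FPKM in sh1089-1, 12.7 in sh1089-2 and 23.2 in shNC. With 3 libraries, such likeness is a description of these values alone.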

How the data were processed

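RNA sequencing values of 3 SK-Hep-1 lines, 1 library each, were used. The authors deposited FPKM per gene. Per the submitters' processing notes, FastQC, StringTie and build GRCh38 were used. For the aligner, the annotation and reads with several matches, the method is not given in the sources used here. Symbols were found for 22375 of 22464 identifiers, and 22444 identifiers were matched to GENCODE 29, which gave coordinates and sequences.

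Whole reads were recovered by finding the gene length that made all 3 FPKM values whole reads, near the annotated exon length, for 99.4% of genes above 0. For KRT80 several lengths gave whole reads, and the one nearest the annotation was taken. A count of 0 allows up to 3 reads, which is 0.315 RPM in sh1089-1, 0.359 RPM in sh1089-2 and 0.280 RPM in shNC. The step was tested on simulated data.

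Differences were taken in log2(FPKM + 1), which understates the change of low genes, over genes of mean FPKM at least 1, with 1.5-fold as the call. With 1 library per group no test was run. The genes and lists were chosen with earlier results of these data known. All 9 keratins were named, with other keratins of mean FPKM at least 0.2, the 5 strongest pseudogenes, examples from each list by level or difference, and the 3 genes nearest to KRT18 and to KRT81. Alternatives changed the pseudocount, scaling, fold, filter and the treatment of KRT81 and KRT86. Python 3.11.15, pandas 2.3.3, scipy 1.17.1 and Biopython 1.88 were used.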

Additional observations from a re-analysis of the deposited data

Results flagged for a closer look

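KRT81 differed between the hairpin lines that share a target. The log2 difference of sh1089-2 over sh1089-1 was -1.08, with 40.4 FPKM in sh1089-2 and 86.3 in sh1089-1, where shNC had 80.0. Over shNC, KRT81 lay on either side of 0, at a log2 difference of 0.11 in sh1089-1, within 1.5-fold, and -0.97 in sh1089-2. With 1 library per line the difference was not tested.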

How the results depend on the processing

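The counts of keratins past the fold rule moved as follows. At a fold of 2, 0 were higher in sh1089-1 over shNC and 0 in sh1089-2 over shNC. The count lower in sh1089-1 over shNC was 1 with KRT81 and KRT86 summed, which makes 1 gene of the pair, and 1 at a mean of at least 5 FPKM, which leaves KRT86 out. The count lower in sh1089-2 over sh1089-1 was 2 with a pseudocount of 0.1, 2 with TPM and 2 with the plain ratio. The gene gained was KRT86, whose low values the pseudocount of 1 FPKM shrinks. Its log2 difference was -0.51 as reported, -0.86 with a pseudocount of 0.1 and -0.70 with TPM, and its plain ratio was 1.90-fold lower. Type II over type I was 0.588 in sh1089-1, 0.572 in sh1089-2 and 0.697 in shNC with all listed keratins, 0.546, 0.559 and 0.634 in that order without KRT81 and KRT86, and 1.10, 1.11 and 1.29 per coding base. It was lower in the hairpin lines in each case. KRT8, KRT18 and KRT19 make up most of the sums, so these choices could hardly move shNC from the highest place. The order of the hairpin lines did change. The sh1089-1 value was above that of sh1089-2 as reported and with all listed keratins, and below it without KRT81 and KRT86 and per coding base. Other counts stayed within 1.5 times. With a pseudocount of 0.1, TPM, median-of-ratios scaling or the plain ratio, 3 keratins, KRT10 among them, were higher in sh1089-1 over shNC. With TPM 3, KRT8 among them, were higher in sh1089-2 over shNC. The count lower in sh1089-2 over shNC fell from 3 to 2 at a fold of 2, which KRT81, at -0.97, did not reach. It was also 2 at a mean of at least 5 FPKM and with KRT81 and KRT86 summed. Of 84 recomputed differences of single keratins 15 moved by more than the half-width of their counting interval on the log2 scale, and 0 that had passed the 1.5-fold rule changed sign. Differences near 0 did change sign: KRT81 in sh1089-1 over shNC, 0.11, became -0.00 when summed with KRT86, and KRT19 in sh1089-2 over sh1089-1, -0.00, became 0.05 with TPM and 0.01 with median-of-ratios scaling. KRT17, whose interval is very wide, was at 0.41 in sh1089-1 over shNC and 0.54 in sh1089-2 over shNC, and at 1.85 and 2.20 in that order with a pseudocount of 0.1. The plain ratio and the coding base were chosen after seeing the data. No paired analysis was possible because each group is 1 library, and no library could be left out. Depth limits KRT17 and KRT86 most.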

Other observations

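KRTCAP3, a keratinocyte-associated protein gene outside the keratin family, had 1.80 FPKM in sh1089-1, 2.05 in sh1089-2 and 0.60 in shNC. It was named after its values were seen and rests on 24 reads in sh1089-1, 24 in sh1089-2 and 9 in shNC.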
